A study of Mus musculus with 12 samples.

Results

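The genes described here encode enzymes with which the liver breaks down amino acids. They were chosen by symbol from 51 names, and 50 of these have a row among the 55487 genes of the count table. The symbol Bckdhk has no row. The gene listed as Bckdk, which encodes the kinase that switches off the branched-chain keto acid dehydrogenase, falls outside the rule and is given separately because it was chosen after its values were seen. All 50 genes passed the filter on low counts, with at least 85 counts in every library. They were grouped by the amino acids they act on: 7 genes of phenylalanine and tyrosine breakdown, 6 of tryptophan, 4 of histidine, 6 of serine, alanine and aspartate, 3 of proline and ornithine, 1 of lysine, 13 of the branched-chain amino acids, 4 of glycine and 6 of the sulfur amino acids.

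Liver RNA from male mice aged 16 to 18 months was sequenced in 12 libraries, 3 in each of 4 groups, which cross genotype with feeding. Both genotypes carry floxed Foxo3 alleles: the controls have no Cre, and the mice labelled knockout carry Alb-cre, a recombinase driven by the albumin promoter and so active in hepatocytes, while other liver cells keep the gene. In each genotype 1 group was fed and the other was fasted overnight, and every mouse is labelled as fed ad libitum otherwise. The labels number the libraries as replicates without saying that each is a separate animal, so p-values set group differences against the spread between these libraries. The comparisons ask how fasting changes the genes in each genotype, and how the loss of Foxo3 changes them in each feeding state.

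For some amino acids breakdown starts with the removal of nitrogen, by transaminases such as Tat, Gpt and Got1 or by dehydratases such as Sds. For others it starts with a different step, and each carbon skeleton has a separate chain of enzymes. The products feed glucose synthesis, ketone body formation and the urea cycle, and glucagon and glucocorticoids are known to raise several of these enzymes in the fasted liver. FoxO factors, which insulin keeps out of the nucleus, are known regulators of liver genes of the fasted state.

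The libraries held 17520058 to 22414976 counts, of which the 50 genes took 2.15% to 3.97%. Foxo3 itself averaged 46.8 ± 3.2 CPM (SD, n = 3; CPM relate a gene's counts to the library total after TMM scaling between libraries) in the fed controls and 60.2 ± 1.8 in the fed livers labelled knockout, and 40.8 ± 3.2 and 51.2 ± 4.0 in the fasted groups. A count over the whole gene was therefore higher, not lower, under the knockout label, and since the sources used here do not name the deleted exons it does not check the deletion. The genotype is given below as labelled. Summed markers of hepatocytes lay between 64600 and 116000 CPM, with 9 of 10 markers found and none of these at 0, and those of exocrine pancreas, muscle and fat, and kidney reached at most 0.784 CPM in any library. Fed control 3 stood apart: 45 of the 50 genes were lower there than in the other fed controls, by a median of 0.30 on the log2 scale, while markers of stellate cells and fibroblasts summed to 717 CPM against at most 383 elsewhere and those of bile duct cells to 141 against at most 60.8. In fasted control 3, markers of B and plasma cells summed to 1880 CPM against at most 105 elsewhere. Fasted control 1 had 45 of the 50 genes below the other fasted controls, by a median of 0.18. Shifts of the set in 1 direction were seen in other libraries as well. Fed control 2 had 45 genes above the others of its group (median 0.21), fed knockout 1 had 41 (0.13) and fasted knockout 1 had 42 (0.13). Only 5 were above in fed knockout 2 (-0.15) and 7 in fasted knockout 2 (-0.17). The 9 periportal markers summed to 7070 to 10800 CPM in fed controls and 10900 to 14500 in fasted controls, and to 9820 to 14500 and 9130 to 13800 in the livers labelled knockout. Of single periportal markers, Pck1 (1420 to 2010 CPM fed, 3630 to 4110 fasted), Asl and Apof separated in controls, and the others overlapped. The summed pericentral markers separated under the knockout label, at 6780 to 9660 CPM fed and 12600 to 14000 fasted. In controls they stood at 7080 to 12300 and 10400 to 15300. Cyp2e1 made up most of the sum, at 4820 to 6960 CPM fed and 9650 to 10900 fasted under the knockout label. Apart from it only Lgr5 separated there, and the other pericentral markers overlapped. Stellate and fibroblast markers separated in controls, at 301 to 717 fed and 195 to 290 fasted. B and plasma cell markers were at 43.1 to 64.5 in fed and 14.9 to 36 in fasted livers labelled knockout. In fasted controls they were at 40.7 to 1880, and T and NK cell markers were at 9.44 to 13 there against 3.77 to 6.62 in fasted livers labelled knockout. The part of these differences in the results below was not tested, and in bulk RNA fewer cells of a type and less RNA per cell cannot be told apart.

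Per unit of transcript length, the set was led by the sulfur amino acid and aromatic enzymes. In TPM, the deposited length-scaled unit, the mean over the 12 libraries was 3170 for Mat1a, which makes S-adenosylmethionine from methionine, 3030 for Gnmt, which uses that product to methylate glycine, and 2010 for Hpd, the dioxygenase of the second step of tyrosine breakdown. Oat, Bhmt, Ahcy and Tat followed at 1530, 1520, 1320 and 1270. At the other end stood Sdsl at 16.2, Mccc1 at 12.4 and Acmsd at 10.3. Within a group, the 50 genes varied by a median SD of 0.20 on the log2 scale, against 0.15 for the 8301 tested genes at least as abundant as the lowest of them. Bhmt (0.62), Acmsd (0.60), Sds (0.47), Sdsl (0.41) and Got1 (0.40) varied most between replicates, and Acad8 least (0.07).

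**Figure D1:**
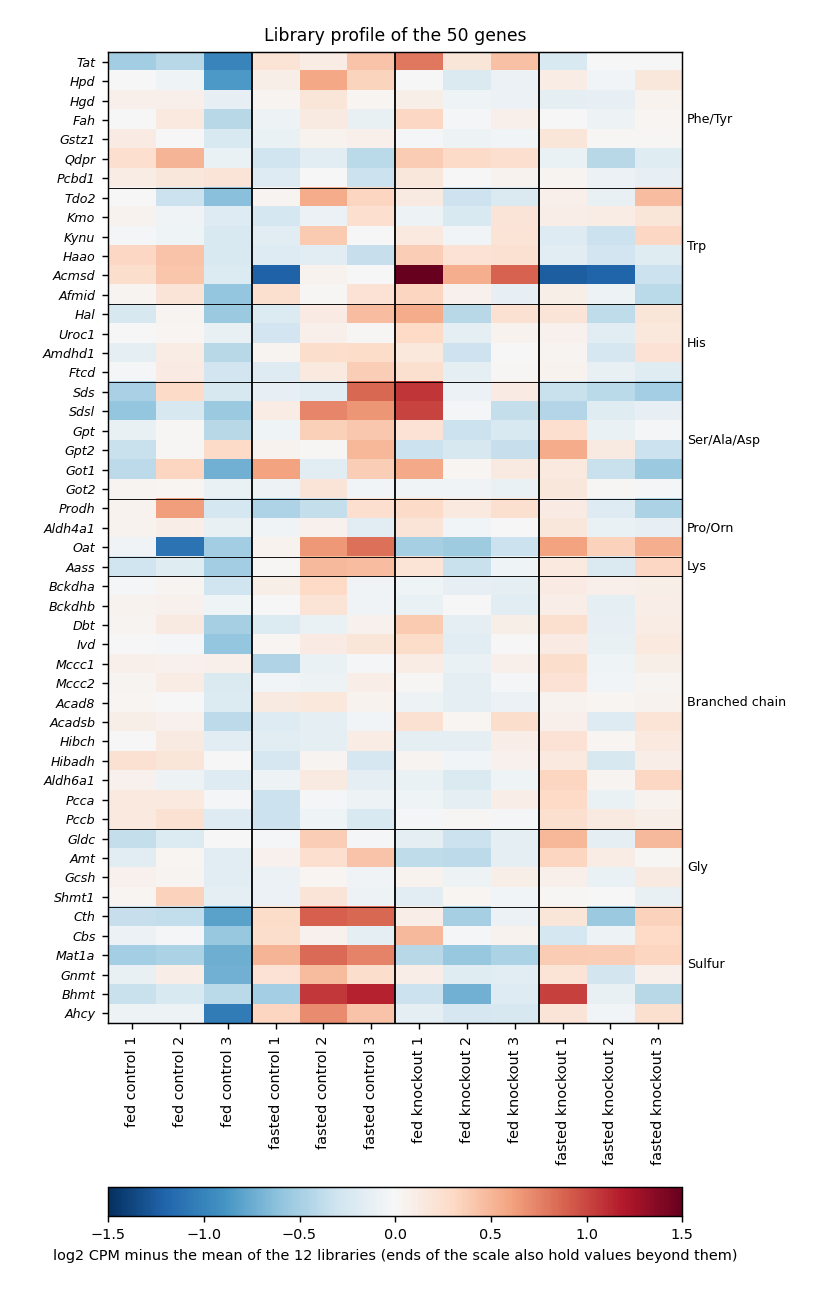
Level of each of the 50 genes in each of the 12 libraries, as log2 CPM minus the gene's mean over all libraries, with genes in rows by pathway and libraries in columns by group. Fed control 3 is pale to dark blue for most genes, and most sulfur genes turn from blue in the fed to red in the fasted controls, with Bhmt in fasted control 1 as an exception.

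Fasting of control livers raised 4 of the 50 genes and lowered none past the threshold (edgeR quasi-likelihood test, adjusted p under 0.05). Among all 15862 tested genes, 2.05% rose and 2.09% fell. The 4 are Mat1a, Cth, Oat and Tat, which act in 3 different pathways. Counting these 4, 13 genes had an unadjusted p under 0.05 and a higher level after fasting, and 6 had one and a lower level, beside 9.61% and 9.81% of all tested genes. The log2 difference was above 0 for 35 genes and below it for 15, where 49.5% of all tested genes were above, with a median of 0.17 against -0.003 over all of them. In 13 genes every fasted control lay above every fed control, and in 4 every one lay below, beside 11.5% and 10.9% of all tested genes. With DESeq2 the count was 11, of which 9 rose and 2 fell, beside 7.86% of the genes it tested. It was 1 without fasted control 3, 2 without fasted control 2 and 2 without fed control 2, beside 1.94%, 1.67% and 2.1% of tested genes. Mat1a was called each time. Without fed control 3 it was 4, beside 3.33%, with Qdpr and Haao lower in place of Oat and Cth.

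The sulfur amino acid group held 2 of the 4. Its 6 genes all had a positive log2 difference, with a median of 0.95, and 5 of them had an unadjusted p under 0.05. Mat1a (ENSMUSG00000037798, chr14:41105035-41124412, plus strand) stood at 2900, 2980 and 2500 CPM in the fed controls and at 5920, 7500 and 6950 in the fasted controls. Every fasted library was far above every fed one. The rise was 2.43-fold (log2 1.28, SE 0.15, adjusted p = 0.00099 by edgeR). Cth (ENSMUSG00000028179, chr3:157894248-157925077, minus strand), the lyase that releases cysteine in the last step of transsulfuration, stood at 282, 278 and 205 CPM fed and 434, 666 and 650 fasted. The groups did not overlap, although fasted control 1 lay well below the other fasted controls. The rise was 2.29-fold (log2 1.19, SE 0.25, adjusted p = 0.02 by edgeR), and the adjusted p was 0.066 without fed control 3, 0.054 without fed control 2, 0.078 without fasted control 2 and 0.075 without fasted control 3.

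The other 4 sulfur genes did not pass by edgeR. Ahcy, which splits S-adenosylhomocysteine to homocysteine, stood at 1380, 1380 and 701 CPM fed and 1820, 2380 and 1960 fasted. The groups did not overlap, and fed control 3 was well under the other fed livers. The log2 difference was 0.83 (SE 0.22, adjusted p = 0.054 by edgeR), and it passed with upper-quartile factors, with no filter, with DESeq2, with limma-voom and with limma on log2 TPM. Bhmt, which remethylates homocysteine with betaine, stood at 2510, 2700 and 2400 CPM fed and 2230, 6620 and 7040 fasted. Fasted control 1 lay at the fed level and the other fasted controls well above it, so the groups overlapped (log2 1.06, SE 0.43, adjusted p = 0.21). Without fasted control 1 the difference was 1.43 with an adjusted p of 0.046. Gnmt had a log2 difference of 0.53 (adjusted p = 0.16) with no overlap between the groups, and Cbs, the first enzyme of transsulfuration, one of 0.29 (adjusted p = 0.46).

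Oat (ENSMUSG00000030934, chr7:132557478-132576398, minus strand) encodes ornithine aminotransferase, the mitochondrial enzyme that passes ornithine on towards glutamate. It stood at 1310, 631 and 947 CPM in fed and at 1410, 2120 and 2410 in fasted controls. The groups did not overlap, but fed control 1 and fasted control 1 lay close together. The rise was 2.06-fold (log2 1.04, SE 0.25, adjusted p = 0.033 by edgeR). This call was lost without fed control 2 (log2 0.81, adjusted p = 0.09), without fasted control 3 (0.87, adjusted p = 0.12), without fasted control 2 (0.99, adjusted p = 0.11), without fed control 3 (1.03, adjusted p = 0.079) and without fed knockout 2 (1.04, adjusted p = 0.052). It was also lost in a fit of only the 2 groups compared (adjusted p = 0.15), with the replicate block (0.054) and with limma on log2 TPM (0.063). Prodh and Aldh4a1, which open proline breakdown and close it to glutamate, had log2 differences of -0.34 (adjusted p = 0.48) and -0.06 (adjusted p = 0.83).

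Tat (ENSMUSG00000001670, chr8:109990437-109999803, plus strand) encodes tyrosine aminotransferase, the first enzyme of tyrosine breakdown and a classic target of glucocorticoids. It stood at 826, 889 and 597 CPM in the fed and 1370, 1280 and 1600 in the fasted controls. All fasted libraries exceeded all fed ones. The rise was 1.84-fold (log2 0.88, SE 0.19, adjusted p = 0.021 by edgeR), with an adjusted p of 0.087 without fasted control 3, 0.07 in a fit of only the 2 groups compared and 0.051 with the replicate block. Further down the pathway Hpd had a log2 difference of 0.61 (adjusted p = 0.13) with no overlap, while Hgd, Gstz1 and Fah, which open and split the ring product, lay between 0.04 and 0.08 with adjusted p of at least 0.77. Qdpr and Pcbd1, which recycle the tetrahydrobiopterin cofactor of phenylalanine hydroxylase, had lower levels in every fasted control than in any fed one. Their log2 differences were -0.53 (SE 0.15, adjusted p = 0.071) and -0.33 (SE 0.11, adjusted p = 0.11), and both passed with DESeq2.

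The promoters of Oat and Tat, which rose in the controls, are shown so that their sequence can be set beside these values. RefSeq tables gave 47 promoters for 43 of the 50 genes, on GRCm38.p6, the same assembly as mm10. Mat1a, Cth, Sds, Sdsl, Kynu, Dbt and Gpt were not matched. Each sequence is the 250 bases before the RefSeq transcription start, read in the direction of the gene. Capitals mark CCAAT or its reverse complement ATTGG. The Tat promoter lies at chr8:109990186-109990435 on the plus strand and that of Oat at chr7:132576399-132576648 on the minus strand.
Tat: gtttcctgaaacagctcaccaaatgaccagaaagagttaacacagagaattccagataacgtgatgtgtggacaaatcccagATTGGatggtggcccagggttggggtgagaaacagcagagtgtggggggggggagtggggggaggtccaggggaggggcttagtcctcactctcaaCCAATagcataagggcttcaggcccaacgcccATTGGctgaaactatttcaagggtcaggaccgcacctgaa
Oat: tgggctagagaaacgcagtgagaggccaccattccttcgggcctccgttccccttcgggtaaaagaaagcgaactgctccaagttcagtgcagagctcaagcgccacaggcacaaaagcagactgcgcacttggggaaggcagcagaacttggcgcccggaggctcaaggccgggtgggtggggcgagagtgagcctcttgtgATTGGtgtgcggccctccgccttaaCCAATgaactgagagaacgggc
In Tat the marked letters begin at -168, -72 and -40 counted from the start site, and in Oat at -47 and -22. The letters CCAAT, which were looked for only after the promoters were seen, occurred on either strand in 30 of the 47 promoters, or 63.8%, against 33.8% of all 32851 promoters and 34.9% of the 14205 promoters of tested genes. The forkhead letters GTAAACA were in 1 of the 47, that of Hibadh (2.1% against 3.2% of all and 2.5% of tested), and TGACG, the half-site of the cyclic AMP response element, was in 7 (14.9% against 17.8% and 25.1%). The glucocorticoid receptor half-site TGTTCT was in 3 (6.4% against 16.1% and 11.5%), and TATAAA was in 6 (12.8% against 12.4% and 7.1%). No motif overlapped another of a different kind in the promoters shown. A match or its absence in this window describes these letters and says nothing of binding.

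In the remaining groups no gene passed in the control livers by edgeR, while DESeq2 called Tdo2, Sdsl and Aass. All 6 genes of serine, alanine and aspartate had positive differences, with a median of 0.40. Sdsl, a serine dehydratase-like enzyme, stood at 6.17, 7.81 and 6.27 CPM fed and 10, 15.4 and 14.6 fasted. All fasted libraries were higher (log2 0.98, SE 0.30, adjusted p = 0.095 by edgeR). Got1, the cytosolic aspartate aminotransferase, had a difference of 0.50 (adjusted p = 0.37), Gpt, an alanine aminotransferase, 0.40 (adjusted p = 0.24), and Sds, serine dehydratase, 0.39 (adjusted p = 0.59). Sds stood at 148, 253 and 175 CPM fed and 191, 185 and 377 fasted, with overlap and fasted control 3 far above the rest. Tdo2, the first enzyme of tryptophan breakdown, was higher in every fasted control (log2 0.62, adjusted p = 0.12), and Haao, which acts further along the kynurenine route, had a difference of -0.43 (adjusted p = 0.14). Aass, which opens lysine breakdown, was also higher in every fasted control (0.66, SE 0.18, adjusted p = 0.061). The 4 histidine genes Hal, Uroc1, Amdhd1 and Ftcd, which form 1 chain to glutamate, overlapped between fed and fasted, with adjusted p of at least 0.29.

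The 13 branched-chain genes had a median nearer to 0 than any other group. Their log2 differences ran from -0.29 for Hibadh to 0.29 for Ivd, with a median of 0.008, and none passed by edgeR or DESeq2. The smallest adjusted p was 0.22 for Pccb. The keto acid dehydrogenase subunits Bckdha, Bckdhb and Dbt had 0.21, 0.04 and 0.009. Pcca and Pccb, the subunits of propionyl-CoA carboxylase, had -0.23 and -0.27, and Mccc1, a subunit of the carboxylase of leucine breakdown, had -0.26. The kinase gene Bckdk, outside the rule, had 0.09 (SE 0.14, adjusted p = 0.78). In the glycine group, Amt, the aminomethyltransferase of the glycine cleavage system, was higher in each fasted control (0.35, SE 0.12, adjusted p = 0.12), and its partners Gldc and Gcsh had 0.29 and -0.02.

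**Figure D2:**
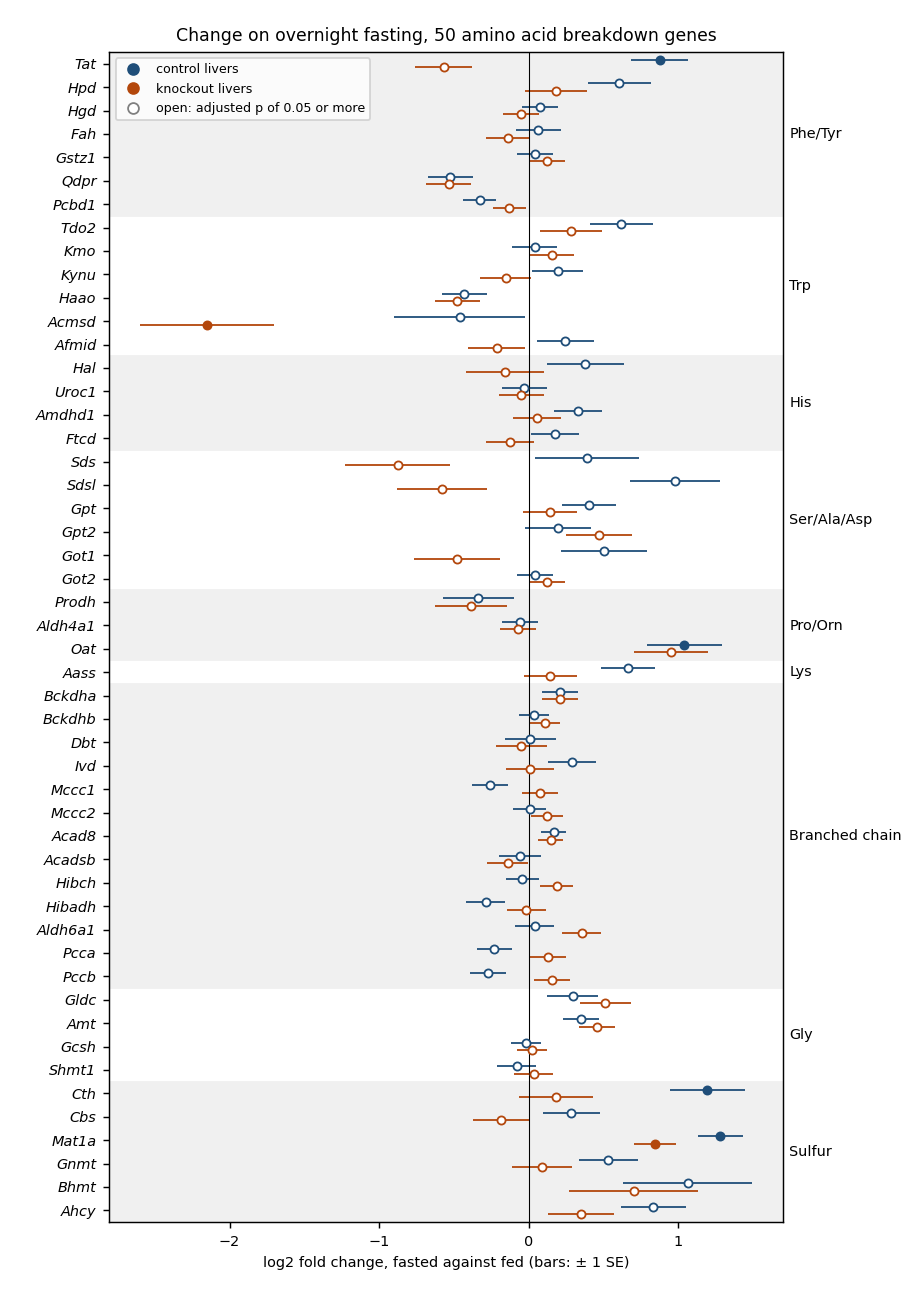
Log2 fold change on overnight fasting (x axis) of each of the 50 genes (y axis, by pathway), with bars of 1 standard error from edgeR, in control livers (blue) and livers labelled knockout (orange). Filled points passed an adjusted p of 0.05: Mat1a, Cth, Oat and Tat to the right in controls, Mat1a to the right and Acmsd to the left in the knockout group.

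In the livers labelled knockout, fasting raised 1 of the 50 genes, Mat1a, and lowered 1, Acmsd (edgeR, adjusted p under 0.05). Among all tested genes 1.36% rose and 1.12% fell. An unadjusted p under 0.05 was reached by 5 genes in each direction, beside 7.16% higher and 7.48% lower among all tested genes. The difference was above 0 for 29 genes and below it for 21 (49.2% above among all tested genes), with a median of 0.06. The libraries of 11 genes were all higher and of 6 all lower after fasting, beside 11.5% and 11.8% of all tested genes. DESeq2 called 6, with 3 in each direction, beside 5.07% of the genes it tested. The count was 4 without fed control 3, which shares in the estimate of the spread, beside 3.54% of tested genes. It was 1 without any one of fasted controls 2 and 3, the 3 fed knockouts and fasted knockouts 1 and 3, beside 0.543% to 2.3%.

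Mat1a stood at 3100, 2790 and 2990 CPM fed and at 5390, 5340 and 5190 fasted under the knockout label. All fasted libraries exceeded all fed ones by a wide margin. The rise was 1.79-fold (log2 0.84, SE 0.14, adjusted p = 0.01 by edgeR), and the adjusted p was 0.055 without fed knockout 2. Oat stood at 957, 936 and 1080 CPM fed and 2060, 1720 and 1970 fasted. The groups were far apart, and the log2 difference of 0.95 (SE 0.25, adjusted p = 0.063) was close to the 1.04 of the controls. It passed with DESeq2 (adjusted p = 0.0029) and in a fit of only the 2 groups compared (0.0078).

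Acmsd (ENSMUSG00000026348, chr1:127729413-127767978, plus strand) encodes the decarboxylase that diverts the kynurenine route away from quinolinate and NAD. It stood at 38.8, 14.2 and 17.9 CPM in fed and at 4.11, 4.22 and 7.77 in fasted livers labelled knockout. The 3 fasted libraries were lower than every fed one, and fed knockout 1 was far above the other fed livers. The fall was 4.44-fold (log2 -2.15, SE 0.45, adjusted p = 0.038 by edgeR). Without fed knockout 1 the difference was -1.59 with an adjusted p of 0.11, and leaving out other libraries gave adjusted p of up to 0.14. In the controls Acmsd stood at 11.7, 13 and 8.44 CPM fed and 4.20, 10.1 and 9.70 fasted, with overlap (log2 -0.46, SE 0.44, adjusted p = 0.62).

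Of the genes that did not pass, Amt (log2 0.46, SE 0.12, adjusted p = 0.066), Gldc (0.51, SE 0.17, adjusted p = 0.16) and the methylmalonate semialdehyde dehydrogenase gene Aldh6a1 (0.35, SE 0.13, adjusted p = 0.21) were higher in every fasted liver labelled knockout. Qdpr, Haao and Sds were lower in every one. Qdpr had a difference of -0.54 (SE 0.15, adjusted p = 0.089), almost that of the controls, and Haao one of -0.48 (SE 0.15, adjusted p = 0.14). Sds stood at 436, 195 and 226 CPM fed and 164, 157 and 145 fasted. Fed knockout 1 was again the highest library, and the difference was -0.88 (SE 0.35, adjusted p = 0.28), or -0.44 without that library. Cth, at 385, 253 and 337 CPM fed and 408, 244 and 455 fasted, overlapped (0.18, SE 0.25, adjusted p = 0.81). Bhmt, at 2540, 1920 and 2770 fed and 6460, 2930 and 2380 fasted, was high in fasted knockout 1 alone (0.70, SE 0.43, adjusted p = 0.51), with a difference of 0.14 without it. Of the 13 branched-chain genes 10 had positive differences, with a median of 0.12, and Bckdk had 0.42 (SE 0.14, adjusted p = 0.17) with every fasted library above every fed one.

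**Figure D3:**
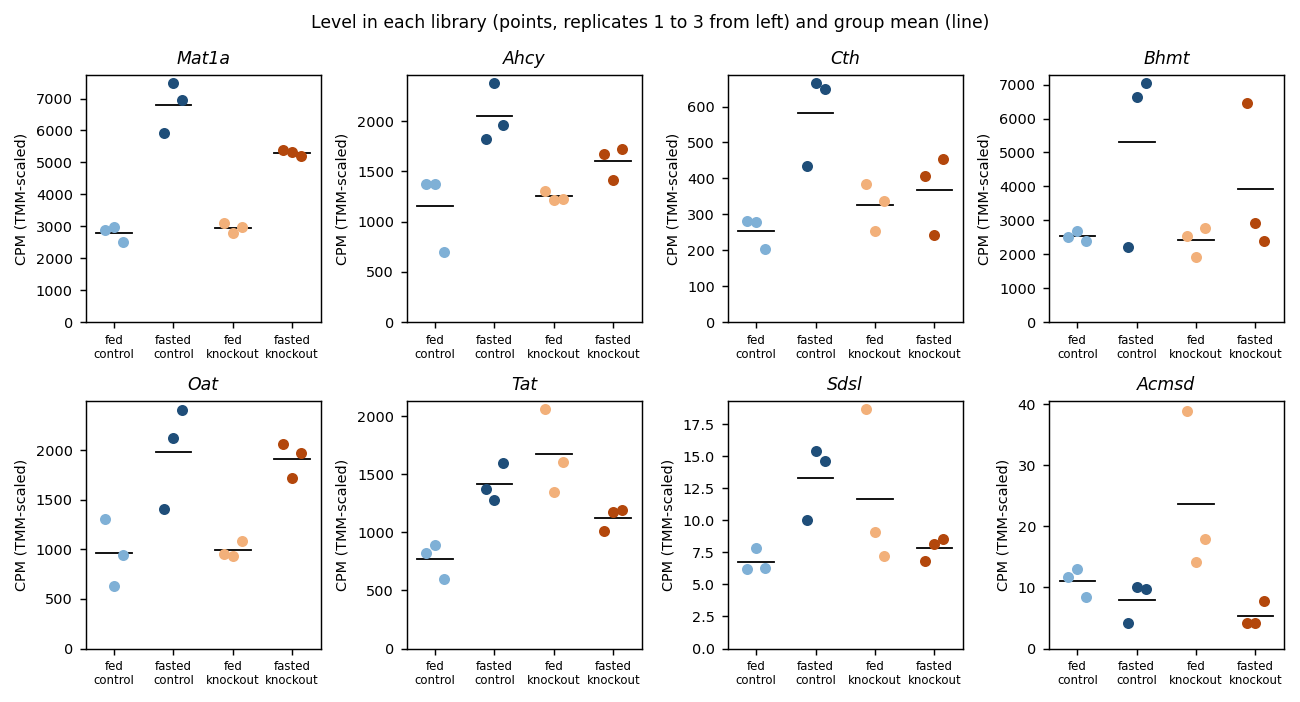
CPM scaled by TMM (y axis, from 0) of 8 genes in the 4 groups (x axis), with 1 point per library and a line at the group mean. Mat1a is at 5190 or more in all 6 fasted livers and at 3100 or less in all 6 fed ones, whereas the order of the groups for Tat turns round between the genotypes.

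The 2 fasting comparisons use no library in common, but both rest on the same fit. Over the 50 genes their log2 differences had a Pearson correlation of 0.41 and a Spearman correlation of 0.34, against 0.35 and 0.36 over all tested genes, and 32 genes (64%) had the same sign, against 64.4%. The genes share libraries and are not independent, so these are descriptions.

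Knockout against control in the fed state called none of the 50 genes (edgeR), as it called 0% of all tested genes. At an unadjusted p under 0.05 there were 3, all higher under the knockout label: Tat, Acmsd and Sdsl. Among all tested genes 2.98% were higher and 3.13% lower at that level. DESeq2 called 1, Tat, beside 0.997% of the 3311 genes to which it gave an adjusted p, and limma-voom 0. In 3 of the 50 genes every library labelled knockout lay above every control and in none below, beside 6.3% and 5.99% of all tested genes. Tat stood at 2060, 1350 and 1610 CPM in the fed knockout group, against 826, 889 and 597 in the fed controls. All 3 were higher, and the difference was 2.17-fold (log2 1.12, SE 0.19, adjusted p = 0.17 by edgeR). The adjusted p was 5.5e-06 with DESeq2 and 0.0022 by edgeR with no filter on low counts. Tat did not pass in the other 20 alternatives, where the adjusted p reached 0.86. Acmsd had a difference of 1.10 (SE 0.43, adjusted p = 0.81), and without fed knockout 1 of 0.54. Sdsl, at 18.7, 9.11 and 7.21 CPM in the fed knockout group, had one of 0.79 (SE 0.30, adjusted p = 0.81), and without fed knockout 1 of 0.27. Its highest value was in that library, where 41 of the 50 genes lay above the other fed knockouts. Cbs was higher in each fed liver labelled knockout (0.40, SE 0.19, adjusted p = 0.81). The fed knockout group had all 6 tryptophan and all 4 histidine genes at positive differences, with medians of 0.18 and 0.10, and 3 of 13 branched-chain genes, with a median of -0.05. The smallest adjusted p by edgeR was 0.81 in the tryptophan and 0.87 in the histidine group. Of all 50 genes 31 had positive differences, with a median of 0.07 against -0.01 over all tested genes.

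In the fasted state knockout against control again called none of the 50 (edgeR), beside 0.0315% of all tested genes. DESeq2 and limma-voom called 0, beside 0.299% and 0.0126% of the genes they tested. By edgeR 5 had an unadjusted p under 0.05: Mccc1 and Pccb higher under the knockout label, and Mat1a, Cth and Sdsl lower. Among all tested genes 4.65% were higher and 4.36% lower at that level. The smallest adjusted p was 0.52. Of all 50 genes 20 had positive and 30 negative differences, with a median of -0.04 against -0.01 over all tested genes. All 6 sulfur genes had negative differences, with a median of -0.36. Mat1a was lower in every fasted liver labelled knockout than in any fasted control (log2 -0.36, SE 0.14, adjusted p = 0.53), and so were Ahcy (-0.36, SE 0.22, adjusted p = 0.65) and Gnmt (-0.31, SE 0.20, adjusted p = 0.67). Cth had the largest difference of the group (-0.66, SE 0.25, adjusted p = 0.52), with overlap, and one of -0.43 without fasted knockout 2. Of the other groups, Sdsl at 6.81, 8.13 and 8.52 CPM (-0.77, SE 0.30, adjusted p = 0.53), Sds (-0.69, SE 0.35, adjusted p = 0.60) and Tat (-0.33, SE 0.19, adjusted p = 0.62) were also below every fasted control. The difference of Sds was -0.28 without fasted control 3. In 6 of the 50 genes the libraries were all lower and in 1, Pccb, all higher (0.35, SE 0.12, adjusted p = 0.52), beside 7.2% and 6.82% of all tested genes. Averaged over both feeding states 0 genes passed by edgeR, beside 0.0126% of all tested genes, with 1 at an unadjusted p under 0.05, Tat (adjusted p = 0.57), beside 7.91%. For this average DESeq2 and limma-voom also called 0, beside 0.294% and 0.0063% of the genes they tested.

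The interaction, which is the fasting change under the knockout label minus that in controls, called 0 of the 50 genes by edgeR, beside 0.0063% of all tested genes. DESeq2 called 1, Tat, beside 0.301% of the genes it tested, and limma-voom 0. At an unadjusted p under 0.05 there were 7, of which 6 were negative and 1, Pccb, positive, beside 3.34% and 3.86% of all tested genes. Of the 50 differences 17 were above 0, where 49.3% of all tested genes were, and the median was -0.07. Under the knockout label Tat stood at 2060, 1350 and 1610 CPM fed and at 1010, 1180 and 1190 fasted. Every fasted liver was below every fed one, opposite to the controls, although that difference of -0.57 (SE 0.19, adjusted p = 0.15) did not pass by edgeR. It passed with DESeq2. The interaction for Tat was -1.45 (SE 0.27, unadjusted p = 0.00011, adjusted p = 0.2 by edgeR, 0.00019 by DESeq2). It did not pass in 19 of the alternatives, where the adjusted p reached 0.58. Sdsl followed with -1.56 (SE 0.42, adjusted p = 0.55), Acmsd with -1.69 (SE 0.63, adjusted p = 0.63), Sds with -1.27 (SE 0.50, adjusted p = 0.64), Cth with -1.01 (SE 0.35, adjusted p = 0.62) and Got1 with -0.98 (SE 0.41, adjusted p = 0.67). Without fed knockout 1 the interaction was -1.13 for Acmsd, -1.04 for Sdsl and -0.83 for Sds, and for Sds it was -0.84 without fasted control 3. Got1 stood at 170, 279 and 136 CPM in fed controls, 341, 199 and 289 in fasted controls, 332, 228 and 245 in fed and 248, 178 and 152 in fasted livers labelled knockout. Its libraries overlapped between fed and fasted in each genotype and between genotypes in each feeding state.

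The genotype differences in fed and in fasted livers use no library in common. Over the 50 genes they had a Pearson correlation of -0.64 and a Spearman correlation of -0.56, against -0.07 and 0.02 over all tested genes, and 17 genes (34%) had the same sign, against 52.6%. This is a description across genes of the same 12 libraries. Tat, Sds, Sdsl, Got1, Acmsd and Cth, singled out here after their values were seen, had positive differences in the fed and negative ones in the fasted state, and none passed by edgeR. They are the genes with a negative interaction at an unadjusted p under 0.05, so these signs follow in part from the choice. The signs are not particular to them: Hpd, Tdo2, Hal, Aass, Cbs, Mat1a, Gnmt and Ahcy, among others, had the same ones. Of the other aminotransferase genes, Gpt (0.064 fed, -0.195 fasted) and Oat (0.042 and -0.048) had these signs at small differences. Gpt2 (-0.32 fed, -0.04 fasted) and Got2 (-0.06 and 0.03) did not. Of the 13 branched-chain genes 9 had positive differences in the fasted state, where 20 of all 50 genes did.

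**Figure D4:**
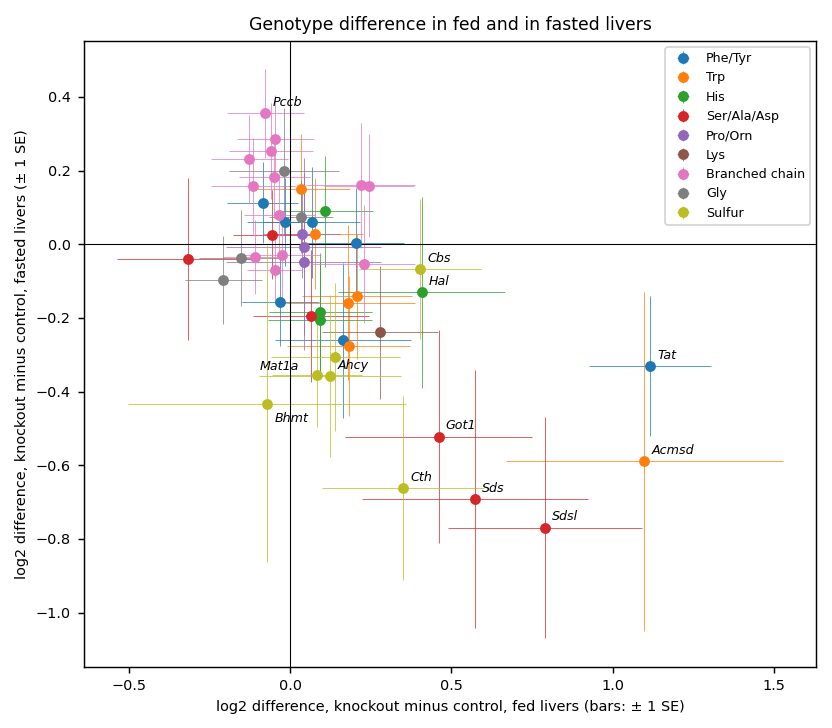
Log2 difference between livers labelled knockout and controls in the fed (x axis) and fasted state (y axis) for each of the 50 genes, colored by pathway, with bars of 1 standard error from edgeR. No gene passed the threshold on either axis, and Tat, Acmsd, Sdsl, Sds and Got1 lie at the lower right.

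Summed over all 50 genes, the TPM was 18800 ± 780 (SD, n = 3) in fed controls, 27900 ± 2900 in fasted controls, 20400 ± 1400 in fed and 23900 ± 2700 in fasted livers labelled knockout. The 3 fasted controls, at 24840 to 30630, were all above the fed controls, at 17900 to 19350. The sulfur group accounted for most of the gap, with 7080 ± 570 fed and 13200 ± 1700 fasted in controls and 7440 ± 420 and 10300 ± 1800 under the knockout label. The branched-chain genes summed to 1250 ± 17, 1240 ± 8.5, 1200 ± 20 and 1350 ± 120 in the same order of groups. No test was made on these sums.

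**Figure D5:**
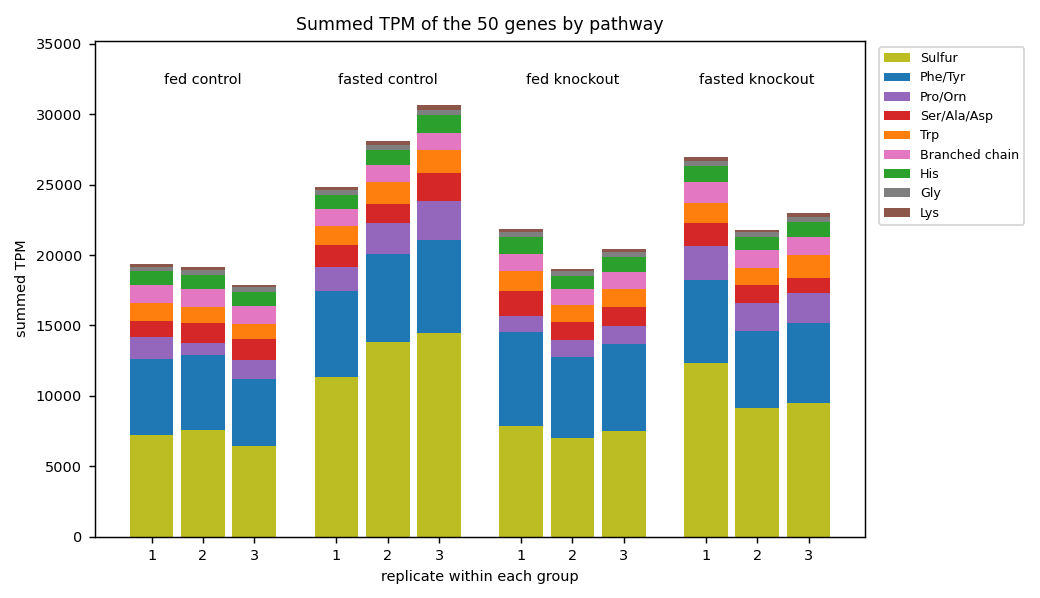
Summed TPM (y axis, from 0) of the 50 genes in each library, 1 bar per replicate in 4 groups, stacked by pathway. The sulfur segment grows from at most 7820 in fed livers to at least 9147 in fasted livers, and the branched-chain segment stays between 1183 and 1481.

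Other genes around these pathways were read from a list of 72 found in the tables, of which 69 were tested. The list was chosen with earlier results of these data known, so the counts from it are descriptions only. In controls 9 of the 69 rose with fasting and 2 fell, beside 2.05% and 2.09% of all tested genes. DESeq2 called 13 and 4, beside 7.86% in either direction. The 9 hold the mitochondrial glutamate carrier Slc25a22 (log2 0.88, SE 0.12, adjusted p = 0.0017 by edgeR), the aspartate and glutamate carrier Slc25a13 (0.65, adjusted p = 0.019), the ornithine carrier Slc25a15 (0.56, adjusted p = 0.025) and Klf15, a transcription factor that is known to raise amino acid breakdown in the fasted liver (0.84, SE 0.15, adjusted p = 0.0089). Cebpb, a factor active in glucose synthesis, and the glucagon receptor Gcgr rose by 0.71 and 0.47 on the log2 scale (adjusted p = 0.025 and 0.027). The transaminase Bcat2, Hsd17b10 of isoleucine breakdown and Mat2a, the other gene for a methionine adenosyltransferase, rose as well (0.63, 0.81 and 0.64), while the branched-chain amino acid carrier Slc25a44 (-0.67) and the methionine synthase Mtr (-0.44) fell. Of the 14 regulators on the list, 7 had positive and 7 negative differences in controls. The glucocorticoid receptor gene Nr3c1 was lower in every fasted control than in any fed one (-0.37, adjusted p = 0.053 by edgeR), and it passed with DESeq2. In the livers labelled knockout 2 of the 69 rose and 1 fell, beside 1.36% and 1.12% of all tested genes. Those that rose include Acat1, a thiolase of isoleucine breakdown (0.75, adjusted p = 0.0097), and the gene that fell was Slc25a44 (-0.86, adjusted p = 0.016). DESeq2 called 5 higher and 4 lower there, beside 5.07% in either direction. None passed for genotype in either feeding state or for the interaction by edgeR, with 8, 5 and 7 of the 69 at an unadjusted p under 0.05, beside 6.12%, 9.01% and 7.19% of all tested genes. DESeq2 called 1 in each: Slc38a2 higher in fed, and Slc25a22 lower in fasted livers labelled knockout and in the interaction, and limma-voom called 0. Slc25a22 in fasted livers had the smallest adjusted p by edgeR. Its levels were 244, 283 and 296 CPM in fasted controls and 159, 162 and 203 in fasted livers labelled knockout, with no overlap (-0.65, adjusted p = 0.12).

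Some counts cannot be assigned to 1 gene. The libraries are strand-specific, but the strand setting of the counting is not given in the sources used here. Of the exonic bases of Bckdha, 61.7% are overlapped by B3gnt8 on the opposite strand, whose counts were 71% to 74% of those of Bckdha in every library. For Qdpr the overlap is 18.6% and the antisense gene Gm42413 held 51% to 54% of its counts, and for Sds it is 29.6%, with Gm15690 at 22% to 26% and Plbd2 at 41% to 83%. Acmsd has an overlap of 3.3%, and its antisense gene 2900009J06Rik held 6.5% to 14% of its counts. For Bhmt it is 3.2%, and the antisense gene Gm15622 held 19% to 22% of its counts. Afmid has an overlap of 2.3% with Tk1 on the opposite strand, whose counts were 67% to 110% of those of Afmid. On its own strand 44.2% of its exonic bases are overlapped by Gm20708, which had a mean count of 0. For these genes the reads of the partners cannot be told apart. Bhmt and Got2 also have a listed pseudogene each, Bhmt-ps1 and Got2-ps1, with mean counts of 155 and 776 per library. Mat1a, Tat, Oat, Cth, Ahcy and Sdsl have no exonic overlap in the annotation.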

How the data were processed

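Liver RNA was sequenced from 12 libraries in 4 groups, taken from the sample titles. The authors deposited raw counts per gene and a second table in TPM over the same genes. Per the submitters' processing notes, bcl2fastq 2.19, Trimmomatic 0.38, HISAT2 2.1.0, featureCounts 1.6.3, DESeq2 1.24.0 and mm10 were used, with no role or order given. The strand setting and annotation release of the counting were not given in the sources used here. Counts were tested with the edgeR 4.0.16 quasi-likelihood F test in R 4.3.3 (TMM, filterByExpr, robust), with 1 mean per group over all 12 libraries and 6 contrasts, 2-sided, Benjamini-Hochberg adjusted over 15862 tested genes, at a threshold of 0.05. The standard error is the log2 fold change divided by the root of F. The procedure was tested on simulated data. Alternatives used other factors and filters, DESeq2 1.42.0, limma 3.58.1 (voom, log2 TPM), only the compared groups, a replicate block and leaving out each library. The members and lists were chosen with earlier results of these data known. Every library's value is given for members past the threshold, the 5 largest changes of each fasting and genotype comparison, and those that separate in opposite directions. The other members are given by level, difference or range, or in the figures alone. The CCAAT letters and Bckdk were added after values or sequences were seen. Some items are not reported here.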

Additional observations from a re-analysis of the deposited data

Results flagged for a closer look

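Tat, the tyrosine aminotransferase gene, moved in opposite directions on fasting in the 2 genotypes, with no overlap between fed and fasted libraries in either. The log2 difference was 0.88 in controls, where all 3 fasted libraries were above all 3 fed ones, and -0.57 in livers labelled knockout, where all 3 were below. The first passed by edgeR (adjusted p = 0.021) and the second did not (0.15), while both passed with DESeq2. In the same way the genotype difference was 1.12 in fed and -0.33 in fasted livers, with every library on the side of its group. The test of the difference itself, the interaction, gave -1.45 (SE 0.27) with an adjusted p of 0.2 by edgeR over all tested genes, which does not pass, and 0.00019 by DESeq2. It passed in 2 of the alternatives and not in the other 19, where the adjusted p reached 0.58. The cause was not tested. No other of the 50 genes separated in opposite directions in this way.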

How the results depend on the processing

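The share of all tested genes called, in either direction, is given here in brackets, since it moves with the setting too. In fasted against fed controls the count of genes past the threshold was 4. It became 7 with no filter on low counts (2.26%), 11 with DESeq2 (7.86%) and 2 with the replicate block (2.77%). When each library was left out it ranged from 1 to 6 (1.67% to 3.97%). In fasted against fed livers labelled knockout the count was 2. It became 6 with DESeq2 (5.07%), 1 with limma-voom (2.18%), 4 with limma on log2(TPM + 1) (1.76%) and 4 on log2(TPM + 0.1) (1.71%). It was 4 in a fit of only the compared groups (3.06%) and 1 with the replicate block (1.46%). When each library was left out it ranged from 1 to 4 (0.543% to 3.54%). For genotype in fed livers and for the interaction the count of 0 became 1 with no filter (0.0172% in each) and 1 with DESeq2 (0.997% and 0.301%). The gene was Tat in both, and the count stayed at 0 when each library was left out. For genotype in fasted livers and averaged it was 0 under each alternative run. The causes were not tested.

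Replicate numbers did not pair the libraries: the correlation of deviations over 18 pairs of libraries with the same number ran from -0.28 to 0.18, with a median of -0.07. With the replicate block, Tat and Oat no longer passed in controls (adjusted p = 0.051 and 0.054), nor Acmsd under the knockout label (0.093), and the counts for genotype and interaction stayed at 0.

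Across the named genes and alternatives, 545 values kept their direction and their side of the threshold, 30 kept the direction and lost the call, 13 gained one, and 0 reversed. Most of the 545 belong to results that had not passed. The 30 losses all fell on fasting results that had: 13 for Acmsd, 9 for Oat, 4 for Cth, 3 for Tat and 1 for Mat1a under the knockout label. A missing adjusted p, as for Acmsd and Sdsl by genotype in fed livers, was counted as not passing. Mat1a in controls passed in each alternative, with log2 values from 1.20 to 1.37. Acmsd lost its call in 13 of 22 alternatives (log2 -2.50 to -1.59). At 85 counts or more in each library the depth was above the filter for every gene, and counting error weighs most on Acmsd and Sdsl.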
